A study of Homo sapiens with 16 samples.

Results

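Transcript usage, the share that each transcript takes of the counts of its gene, was compared between late NORAD knockdown and wild type in HCT116, a human colon carcinoma cell line. A transcript was included when it held at least 10% of its gene in the mean of any of 4 groups and the gene averaged at least 50 counts, which gave 28032 of the 166096 transcripts in the table, from 12121 genes. The groups were cells labelled knock down (KD) at 48 h, wild type (WT) at 48 h, KD at 96 h and WT at 96 h, with 3 libraries in each and 12 of the 16 libraries of the series in all. NORAD, an abundant cytoplasmic and nuclear long noncoding RNA, was lowered in the KD cells by CRISPR interference. This method blocks a promoter with an inactive Cas9 joined to a repressor, and was switched on with 0.5 µg/ml doxycycline. The labels do not say whether the KD cells were 1 clone, whether WT cells carried the repressor or received doxycycline, or whether replicates were separate cultures. A p-value here covers the spread among libraries alone, and part of that may be technical. Libraries of 24 h entered no main test and only 1 alternative fit, of all 16 libraries, and their values are given beside some results.

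A gene can give several RNAs by starting at different promoters, by joining different exons, by keeping an intron or by ending at different polyadenylation sites. These choices can change the protein, its place in the cell, or the life of the RNA, since transcripts with an early stop codon are degraded by nonsense-mediated decay. NORAD is known to bind Pumilio repressors and the splicing-related protein RBMX, and the title of the series names a complex with topoisomerase. The series' design text names alternative splicing in depleted cells as one of its questions.

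NORAD itself was counted at 23.8, 18.3 and 24.3 CPM (counts scaled to a common library total) in the KD libraries of 48 h, against 145, 145 and 152 CPM in WT at 48 h, and at 79.4, 71.0 and 65.4 CPM in KD at 96 h, against 178, 181 and 182 CPM in WT at 96 h. Every KD library was below every WT library of its time. The epithelial markers EPCAM, CDH1, KRT8, KRT18 and KRT19 were counted in all 12 libraries, and EPCAM was at 206 to 249 CPM in KD and 276 to 290 CPM in WT at 48 h, but at 268 to 294 CPM in KD and 252 to 271 CPM in WT at 96 h. Of 7 markers of other cell types, 6 were near 0 (PTPRC, CD3E, VWF, COL1A2, ALB and HBB, together 0.940 to 1.42 CPM in KD and 0.660 to 0.878 CPM in WT at 48 h, and 1.21 to 1.52 CPM in KD and 1.22 to 1.29 CPM in WT at 96 h). The collagen gene COL1A1, on the fibroblast list, was at 60.2 to 86.8 CPM in KD and 31.1 to 32.3 CPM in WT at 48 h, and at 43.2 to 47.5 CPM in KD and 37.9 to 47.8 CPM in WT at 96 h, and its part in the results of 48 h was not tested. ZNF10 is the gene whose KRAB domain is commonly used in such repressors. Its counts were at 4.79 to 16.4 CPM in KD and 0.0562 to 0.103 CPM in WT at 48 h. At 96 h they were at 31.8 to 39.1 CPM in KD and 0.0793 to 0.191 CPM in WT. In the 24 h libraries they were at 121 and 90.9 CPM where labelled KD and 0.255 and 0.434 CPM in WT. KD and WT libraries thus also differed in sequence that matches this gene. Library totals lay between 36610474 and 51853876 estimated counts.

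The libraries of 48 h varied in usage more than those of 96 h. Among 18773 transcripts of genes with at least 500 counts, 2 KD libraries of 96 h differed in share by 3.66 to 3.78 percentage points on average, 2 WT libraries of 96 h by 3.54 to 4.08, and a KD and a WT library of 96 h by 3.63 to 4.46. At 48 h, pairs of KD libraries differed by 5.34 to 8.36 points, pairs of WT libraries by 4.57 to 5.79, and a KD and a WT library by 4.58 to 8.85. Differences between conditions were thus mostly of the size of those between replicates. The median SD of a share was 3.98 points in KD and 2.89 points in WT at 48 h, and 2.07 points in KD and 2.21 points in WT at 96 h, which was 2.55 to 4.66 times the counting error. In a principal component analysis of the shares, KD 48 h replicate 1 and replicate 2 lay at 876 and 1362 on component 1, KD 48 h replicate 3 at 195, and the WT libraries of 48 h at 316, 82.8 and 725. KD 48 h replicate 3 therefore lay among WT libraries, and results of 48 h are given with and without it where it moves them.

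**Figure D1:**
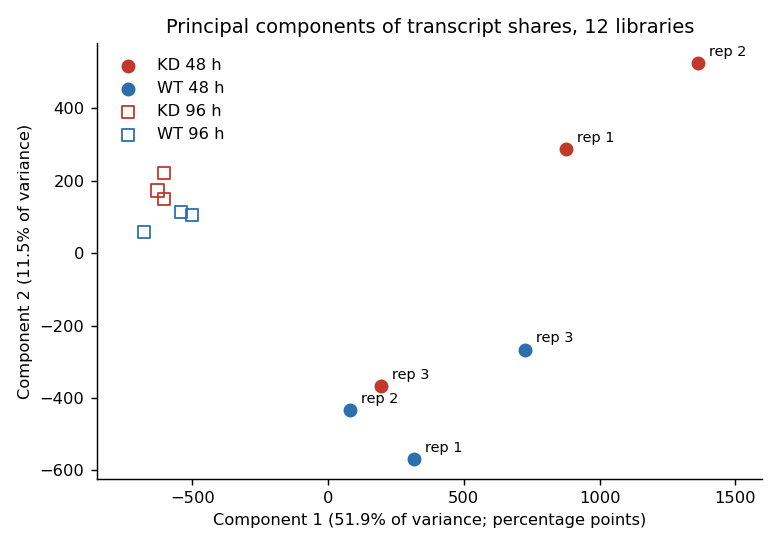
Principal components 1 and 2 of transcript shares in percentage points (51.9% and 11.5% of the variance) for the 12 libraries, with KD in red, WT in blue, 48 h as filled circles with replicate numbers and 96 h as open squares. The 6 libraries of 96 h sit close together, KD 48 h replicate 3 sits beside WT libraries of 48 h, and KD 48 h replicates 1 and 2 sit apart.

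Over both times together, 1 transcript passed the threshold (adjusted p under 0.05, edgeR quasi-likelihood test on transcript and rest-of-gene counts), which is 0.00357% of the 28032 tested, and 0 were lower in KD (0%). At an unadjusted p under 0.05 stood 7.73% of transcripts over both times, 12.5% (3491) at 48 h and 3.32% (930) at 96 h. The tests at 48 h and at 96 h shared 1 estimate of the spread over all 4 groups, though shares varied more at 48 h. With the libraries of each time fitted alone, 1677 at 48 h and 1712 at 96 h stood there, and 0 passed at either time. Over both times, DESeq2 on the same columns called 271 (0.967%). Without 1 of the 12 libraries at a time the count was 0 in 8 of 12 fits, those without KD 48 h replicate 1 or 2, WT 48 h replicate 2 or 3, KD 96 h replicate 1 or 3, or WT 96 h replicate 2 or 3.

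CENPT stood apart when transcripts of a gene that start within 50 bases of each other were summed, a unit added after the data had been seen. CENPT encodes an inner kinetochore protein that links centromeric DNA to the outer kinetochore. Its main start, at 67833913 on the minus strand of chromosome 16 (GRCh38, from GENCODE 29, as for all coordinates and sequences given here) and shared by 15 annotated transcripts led by CENPT-233, held 66.3%, 67.2% and 68.6% of CENPT in KD at 48 h, against 90.9%, 89.8% and 90.5% in WT at 48 h. In the 96 h libraries it held 76.0%, 77.5% and 78.4% in KD, against 94.2%, 94.4% and 94.5% in WT. The replicates of each group lay close together, and the groups were far apart at both times. The log2 odds ratio (the odds of the start within its gene, KD over WT) was -2.24 ± 0.09 (SE, 6 KD and 6 WT libraries) with an edgeR adjusted p of 6.31e-07 over 21418 summed starts, and 7 summed starts passed (0.0327%), against 5 at 48 h and 5 at 96 h (0.0233% each) and 0 for the difference between times. In the libraries labelled KD at 24 h, in which NORAD was not lower (254 and 217 CPM, against 173 and 199 CPM in WT at 24 h), the start held 76.3% and 75.6%, against 90.2% and 89.8% in WT at 24 h. The start led by CENPT-203, farther upstream at 67847693, held 6.46%, 5.05% and 6.29% in KD and 0.313%, 0.362% and 0.492% in WT at 48 h, and 6.77%, 5.98% and 4.79% in KD and 0%, 0.410% and 0.135% in WT at 96 h. Taken alone, CENPT-233 held 33.5% in KD and 38.6% in WT at 48 h and 32.7% in KD and 42.8% in WT at 96 h, and did not pass (edgeR adjusted p 0.386).

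**Figure D2:**
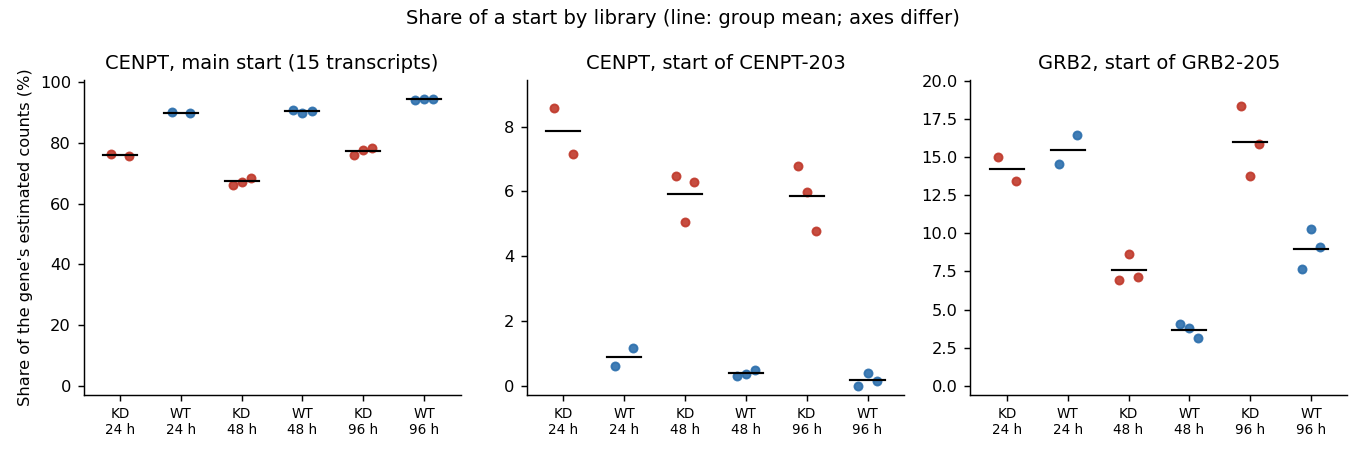
Share of the gene's estimated counts (%) held by the main CENPT start, the upstream CENPT-203 start and the GRB2-205 start, with 1 point for each library and a line at the group mean, at 24 h, 48 h and 96 h, KD in red and WT in blue, each panel with its own axis. The main CENPT start is at 78.4% or less in every library labelled KD and at 89.8% or more in WT, and the GRB2-205 groups overlap at 24 h alone.

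Summed starts of GRB2, SLC3A2 and TIMM50 passed over both times as well. GRB2 encodes the adaptor that couples growth factor receptors to Ras, and GRB2-205 starts 11845 bases downstream of the main start, that of GRB2-201. GRB2-205 held 6.91%, 8.66% and 7.15% in KD and 4.07%, 3.80% and 3.11% in WT at 48 h, and 18.3%, 13.7% and 15.9% in KD and 7.63%, 10.3% and 9.08% in WT at 96 h. It was higher in KD at both times, and its annotated coding sequence is that of GRB2-202. Since GRB2-205 met the 10% minimum only through KD at 96 h, where it is high, its own test (log2 odds ratio 1.03 ± 0.13, edgeR adjusted p 0.0294 among summed starts and 0.0757 among single transcripts) adds no support. The main start, above 10% in all 4 groups, held 91.99% in KD and 96.1% in WT at 48 h and 83.2% in KD and 90.1% in WT at 96 h (log2 odds ratio -0.99 ± 0.13, edgeR adjusted p 0.0264). In the 24 h libraries GRB2-205 held 15.03% and 13.4% where labelled KD and 14.5% and 16.4% in WT, which overlapped. The start of SLC3A2-204, upstream of the main start of the gene for the heavy chain of several amino acid transporters, held 9.27% in KD and 18.0% in WT at 48 h and 7.86% in KD and 13.5% in WT at 96 h (edgeR adjusted p 0.0155). It met the 10% minimum through WT alone, the side where it is high, so its call is a description. TIMM50-214, a 2-exon RNA of a mitochondrial import subunit, held 11.2% in KD and 17.7% in WT at 48 h and 11.2% in KD and 17.9% in WT at 96 h (edgeR adjusted p 0.0409 among summed starts and 0.0757 among single transcripts). In the 24 h libraries TIMM50-214 held 6.93% and 6.09% where labelled KD and 14.2% and 12.4% in WT. The SLC3A2-204 start then held 13.2% and 11.8% where labelled KD and 17.5% and 15.7% in WT. Neither overlapped at 24 h. Summed by 3′ end, 0 of 20682 units passed over both times in the edgeR test, with 1541 at an unadjusted p under 0.05. At single times 6 passed at 48 h (0.029%) and 1 at 96 h (0.00484%). Those of 48 h included GSN-204, of the actin-severing protein gelsolin, whose 3′ end held 22.5%, 17.2% and 24.2% in KD and 55.2%, 48.6% and 47.9% in WT at 48 h, and 19.4%, 21.8% and 15.1% in KD and 26.9%, 24.8% and 30.2% in WT at 96 h (edgeR adjusted p 0.0365 at 48 h). Summed by coding sequence, 1 of 24346 passed over both times (0.00411%), with 8 at 48 h (0.0329%) and 0 at 96 h.

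At 48 h, 17 transcripts of 16 genes passed (0.0606% of those tested), 7 higher (0.025%) and 10 lower (0.0357%) in KD, and each also passed without KD 48 h replicate 3. Without WT 48 h replicate 2 the count was 10, without WT 48 h replicate 3 it was 9, and with the libraries of 48 h alone it was 0. Of the 17, 3 met the 10% minimum only through the condition in which they were higher, among them AP2S1-209 and ZNF764-201, and had to differ for that reason. Of the 17, 13 had a difference of the same sign at 96 h, and in 8 the groups did not overlap at 96 h either. RIC8A encodes a chaperone and exchange factor for G protein alpha subunits. RIC8A-201 starts 1019 bases downstream of RIC8A-203 and uses an earlier splice acceptor that adds 18 coding bases, at chr11:212597-212614 on the plus strand. The bases are shown in capitals with the coding bases on either side, which are joined directly in RIC8A-203.
RIC8A-201: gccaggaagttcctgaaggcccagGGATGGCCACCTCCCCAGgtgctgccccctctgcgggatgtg
RIC8A-203: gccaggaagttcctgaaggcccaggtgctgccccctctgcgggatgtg

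RIC8A-201 held 16.5%, 14.98% and 16.01% in KD at 48 h, against 45.5%, 47.0% and 47.7% in WT at 48 h (log2 odds ratio -2.22 ± 0.17, edgeR adjusted p 0.00119). At 96 h it held 20.8%, 25.4% and 22.3% in KD, against 31.7%, 34.5% and 26.2% in WT, which did not overlap but did not pass. The libraries labelled KD at 24 h held 21.4% and 19.9%, against 32.1% and 35.1% in WT at 24 h. The share was lower in KD at all 3 times.

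Of the other transcripts higher in KD at 48 h, BCL2L1-203 belongs to the gene of the apoptosis regulator Bcl-x. At 48 h it held 32.7%, 40.0% and 30.2% in KD, against 15.9%, 15.4% and 13.5% in WT (log2 odds ratio 1.56 ± 0.21, edgeR adjusted p 0.0456). It shares its annotated coding sequence with BCL2L1-201 and differs from it upstream of the start codon. In the 96 h libraries BCL2L1-203 held 16.3%, 20.3% and 14.96% in KD and 12.7%, 15.5% and 11.9% in WT, and these overlapped. SNAPC2-206, of a subunit of the complex that activates small nuclear RNA genes, held 27.4%, 31.8% and 30.7% in KD and 14.8%, 13.8% and 16.9% in WT at 48 h (log2 odds ratio 1.26 ± 0.16, edgeR adjusted p 0.0419). The 96 h means were 25.5% in KD and 21.3% in WT.

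AP2S1, the small subunit of the clathrin adaptor AP-2, has a transcript with another first exon. AP2S1-209 held 12.7%, 13.7% and 13.5% in KD and 7.88%, 7.17% and 7.60% in WT at 48 h (log2 odds ratio 0.91 ± 0.12, edgeR adjusted p 0.0452), and 11.996%, 10.3% and 10.6% in KD and 7.10%, 7.80% and 8.68% in WT at 96 h. The groups were separate at both times, but AP2S1-209 met the 10% minimum through KD alone, where it is high, so this call is given as a description. AP2S1-209 begins its coding sequence at chr19:46850134-46850184 on the minus strand with 51 bases that replace the lone start codon of AP2S1-201. These are in capitals below, followed by the bases both share.
AP2S1-209: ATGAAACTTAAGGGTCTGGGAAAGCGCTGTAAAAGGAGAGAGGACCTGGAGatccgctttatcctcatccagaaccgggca
AP2S1-201: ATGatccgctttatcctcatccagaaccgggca

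Of the transcripts lower in KD at 48 h, CDK9-203 is a noncoding RNA of the gene for the kinase of the elongation factor P-TEFb. It held 2.50%, 1.45% and 3.57% in KD and 11.7%, 10.995% and 12.6% in WT at 48 h (log2 odds ratio -2.45 ± 0.30, edgeR adjusted p 0.0321), and 14.7%, 11.8% and 12.5% in KD and 18.8%, 22.0% and 18.3% in WT at 96 h. YTHDF2-201, the main transcript of an m6A reader, held 68.6%, 67.7% and 73.8% in KD and 87.2%, 85.3% and 86.3% in WT at 48 h (edgeR adjusted p 0.0452). At 96 h it held 90.7% in KD and 89.7% in WT, so the difference at 48 h was not seen there. DCTPP1-201, of a dCTP pyrophosphatase, held 93.9% in KD and 97.6% in WT at 48 h. INPP4A-205, of a phosphoinositide phosphatase, held 1.76% in KD and 10.7% in WT at 48 h, and 14.7% in KD and 12.9% in WT at 96 h.

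Another 7 of the 17 were listed at 0 in all 3 libraries of a group at 48 h, so no fold is given. SNED1-201 averaged 37.1%, TRIM46-208 16.8% and DUOX2-201 52.2% in KD and were at 0 in WT at 48 h. The gene averaged 213.5 counts for SNED1 and 141.5 for DUOX2 over the libraries of 48 h and 96 h, so their shares rest on few counts. RAB3GAP1-203, NKAPD1-209, ZNF764-201 and ELP3-218 were at 0 in KD at 48 h, against means in WT of 5.53% for RAB3GAP1-203, 11.1% for NKAPD1-209, 11.8% for ZNF764-201 and 3.63% for ELP3-218. ZNF764-201 met the 10% minimum through WT alone, where it is high, and ELP3-218 through KD at 96 h alone. At 96 h all 7 were counted in both groups. SNED1-201, of an extracellular matrix protein, then held 27.7% in KD and 34.4% in WT, and DUOX2-201, of a hydrogen peroxide producing oxidase, held 75.1% in KD and 52.4% in WT.

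**Figure D3:**
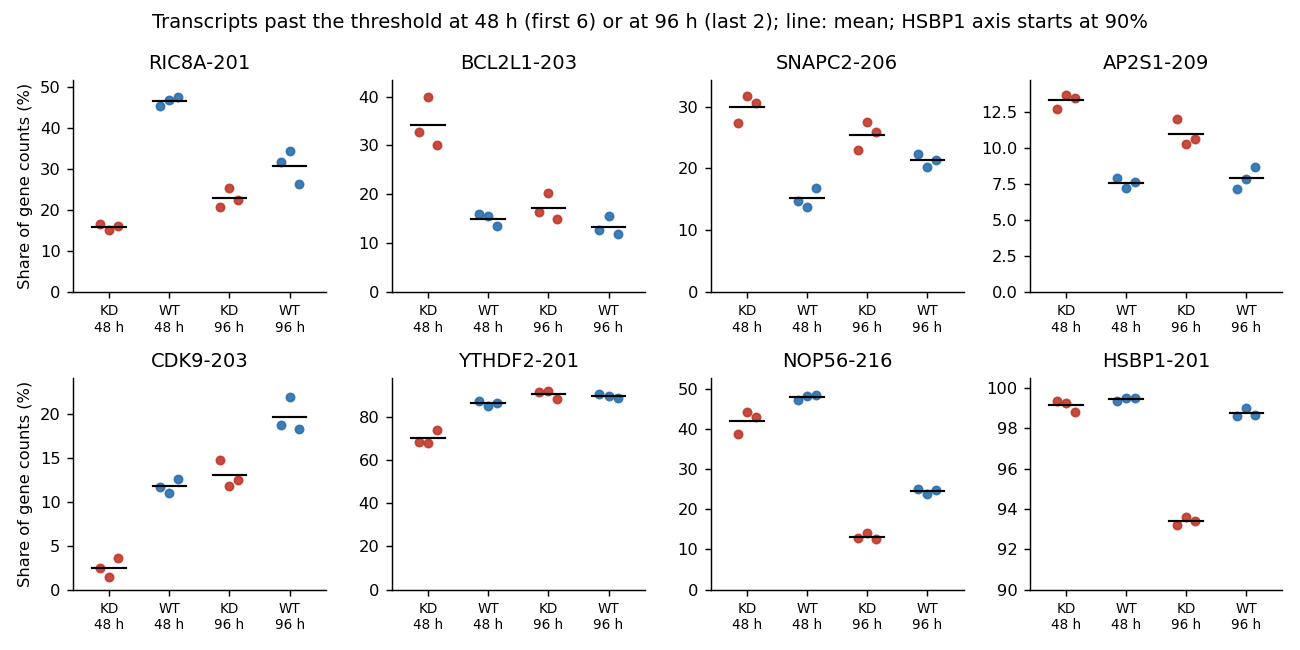
Share of the gene's counts (%) for 6 transcripts past the threshold at 48 h and 2 past it at 96 h, 1 point for each library, a line at the group mean, KD in red and WT in blue. RIC8A-201 is at 14.98% to 16.5% in KD and 45.5% to 47.7% in WT at 48 h, and HSBP1-201, whose axis starts at 90%, is at 93.2% to 93.6% in KD and 98.6% to 99.0% in WT at 96 h.

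Without KD 48 h replicate 3, 1774 transcripts of 1426 genes passed at 48 h (6.33% of those tested), 630 higher (2.25%) and 1144 lower (4.08%). Of the 1774, 257 (14.5%) met the 10% minimum only through the condition in which they were higher. In 685 of them (38.6%, against 27.2% of all tested) replicate 3 lay beyond all 3 WT libraries on the side of the other 2 KD libraries, and in 1089 (61.4%) it lay on that side of the WT mean, against 53.5% of all transcripts tested. Their median difference from WT was 10.9 points in KD replicates 1 and 2, on which they were chosen. In KD replicate 3 it was 0.797 points, in the same direction. Over all tested the medians were 4.85 points in KD replicates 1 and 2 and 0.293 points in KD replicate 3. WT 48 h replicate 3 lay a median of 1.63 points from the mean of the other 2 WT libraries in the 1774, toward KD replicates 1 and 2. At 96 h, 56.7% of the 1774 had the same sign, against 50.4% of all tested. The 1774 thus describe mostly KD replicates 1 and 2, and the smaller difference in KD replicate 3 follows in part from the selection. Of the 630 higher, 37.9% were annotated as retained introns, against 16.3% of all tested transcripts with a higher mean in KD replicates 1 and 2 than in WT. Of the 1144 lower, 2.80% were retained introns, against 5.77% of all tested with a lower mean there. The counts of gene lists that follow stand beside the 6.33% of all tested. They count transcripts, not separate genes, and transcripts of a gene can move against each other, as UPF1-201 and UPF1-204 did.

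The genes of nonsense-mediated decay had 10 of 33 transcripts past the threshold without replicate 3 and 0 of 33 with it. UPF1-201, the main transcript of the decay helicase, held 62.4%, 58.4% and 78.9% in KD (the last in replicate 3) and 84.2%, 83.7% and 71.4% in WT at 48 h. UPF3A-202 held 13.3%, 16.1% and 36.8% in KD and 37.9%, 35.5% and 35.0% in WT at 48 h. In both, replicate 3 was within the WT range. DNA replication and repair genes had 14 of 81, splicing kinases and RBM regulators 16 of 95, and isoform switches known in cancer 17 of 120. Cytoskeleton and adhesion had 10 of 57, interferon and antigen presentation 6 of 46, cleavage and polyadenylation 6 of 54, and cohesin and condensin 4 of 43. The others lay near the share of all tested or below it, with 3 of 39 for SR proteins, 2 of 28 for the NORAD complex, 4 of 59 for ribosomal proteins and snoRNA hosts, 4 of 64 for hnRNP proteins, 4 of 65 for cell cycle and mitosis, 1 of 16 for topoisomerases and 1 of 46 for Pumilio and deadenylase genes. CHEK2-201, of a checkpoint kinase, held 8.66%, 19.9% and 44.4% in KD and 57.6%, 46.0% and 53.4% in WT at 48 h. PKM-224, of pyruvate kinase, held 0.731%, 0.529% and 3.34% in KD and 7.85%, 7.68% and 3.64% in WT at 48 h. At 96 h CHEK2-201 held 56.4% in KD and 61.4% in WT, and PKM-224 held 13.9% in KD and 14.9% in WT.

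At 96 h, 4 transcripts passed (0.0143% of those tested), 1 higher (0.00357%) and 3 lower (0.0107%) in KD. The count was 0 without KD 96 h replicate 2 or 3 or WT 96 h replicate 3, and 1 without WT 96 h replicate 2. The 3 lower were NOP56-216, HSBP1-201 and ZNF23-206. NOP56, a core protein of box C/D small nucleolar RNPs, hosts small nucleolar RNAs in its introns, and NOP56-216 is a noncoding 5-exon RNA that starts inside the gene. NOP56-216 held 12.9%, 14.0% and 12.7% in KD and 24.9%, 23.9% and 24.7% in WT at 96 h (log2 odds ratio -1.10 ± 0.11, edgeR adjusted p 0.0266). At 48 h it held 38.8%, 44.2% and 42.9% in KD and 47.3%, 48.3% and 48.4% in WT. The groups were separate at both times, and at 24 h the share was 23.1% and 23.6% in the libraries labelled KD and 37.8% and 42.4% in WT. The first NOP56 start, of NOP56-201, held 26.6% in KD and 19.6% in WT at 96 h, and 11.7% in KD and 12.6% in WT at 48 h.

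HSBP1-201, the main transcript of heat shock factor binding protein 1, held 93.2%, 93.6% and 93.4% in KD and 98.6%, 99.0% and 98.7% in WT at 96 h (log2 odds ratio -2.51 ± 0.23, edgeR adjusted p 0.0176). At 48 h it was at 99.1% in KD and 99.4% in WT. Its counterpart HSBP1-204, with the same coding sequence and another 3′ end, held 6.13%, 5.97% and 6.06% in KD and 0.924%, 0.229% and 0.425% in WT at 96 h. ZNF23-206, a noncoding RNA of a zinc finger gene, was listed at 0 in KD at 96 h and held 12.6%, 9.41% and 5.29% in WT.

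For the difference of the KD effect between 96 h and 48 h, 0 transcripts passed in the edgeR test (0% of 28032), with 1823 (6.5%) at an unadjusted p under 0.05 and 12 called by limma on the log ratio. Without KD 48 h replicate 3, 133 passed. The lowest edgeR adjusted p among the transcripts named here was 0.131, for SNED1-201 and RAB3GAP1-203. RIC8A-201 had 1.63 ± 0.24 (edgeR adjusted p 0.176), which is a smaller fall at 96 h.

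Single transcripts were also ranked without a threshold. In 431 of 28032 (1.54%) the KD and WT libraries did not overlap at 48 h and at 96 h in the same direction, 191 higher (0.681%) and 240 lower (0.856%) in KD. At 48 h alone 13.7% did not overlap, at 96 h alone 13.5%, and in 215 (0.767%) they did not overlap at both times in opposite directions. Of the 431, 210 (48.7%) were also without overlap in the same direction at 24 h, against 24.7% of all tested. In 82 of the 431 (19.0%) the 10% minimum was met only through the condition in which they were higher, against 11.8% of all tested. Among the 191 higher, 19.4% were retained introns and 58.6% protein coding, against 14.5% and 66.5% of all tested with a higher mean share in KD. Among the 240 lower, 6.25% were retained introns and 76.7% protein coding, close to the 6.95% and 78.0% of all tested with a lower mean share in KD. Their start differed from that of the transcript that changed most the other way in 73.3%, and in 71.8% of all tested. The genes named next were chosen among these after their values were seen, and none of them passed over both times.

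UNG removes uracil from DNA, and its 2 first exons give a nuclear form (UNG-201) and a mitochondrial form (UNG-202). UNG-201 held 43.0%, 45.1% and 44.7% in KD and 59.5%, 60.4% and 64.1% in WT at 96 h, and 87.2%, 84.3% and 87.7% in KD and 89.0%, 90.4% and 91.7% in WT at 48 h (log2 odds ratio -0.79 ± 0.13, edgeR adjusted p 0.255). The forms differ in their first coding bases, in capitals, at chr12:109097680-109097811 for UNG-201 and chr12:109098327-109098431 for UNG-202 on the plus strand, followed by the bases both share.
UNG-201: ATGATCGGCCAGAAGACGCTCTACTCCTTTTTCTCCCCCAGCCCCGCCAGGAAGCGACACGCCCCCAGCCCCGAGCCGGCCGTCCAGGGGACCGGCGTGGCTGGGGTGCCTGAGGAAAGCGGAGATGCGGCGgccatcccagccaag
UNG-202: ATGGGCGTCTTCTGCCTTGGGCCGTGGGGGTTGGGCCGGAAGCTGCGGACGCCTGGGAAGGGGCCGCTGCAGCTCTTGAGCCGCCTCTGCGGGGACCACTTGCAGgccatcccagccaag

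The transcripts of MAP2K7 and SREBF1 differ from their counterparts in short coding stretches. MAP2K7, a kinase that activates JNK, had MAP2K7-201 at 46.4%, 47.9% and 46.0% in KD and 29.2%, 14.97% and 33.9% in WT at 48 h, and at 21.6%, 23.4% and 20.4% in KD and 13.1%, 5.32% and 16.3% in WT at 96 h (edgeR adjusted p 0.435). MAP2K7-201 lacks 21 coding bases at chr19:7911415-7911435 on the plus strand that MAP2K7-202 includes by an earlier splice acceptor. SREBF1, the regulator of lipid synthesis genes, had SREBF1-201 at 45.4%, 34.0% and 51.8% in KD and 66.4%, 63.0% and 58.3% in WT at 48 h, and at 40.6%, 43.1% and 45.4% in KD and 56.6%, 59.9% and 51.1% in WT at 96 h (edgeR adjusted p 0.386). SREBF1-201 skips a coding exon of 90 bases at chr17:17823518-17823607 on the minus strand. The stretches are shown in capitals in the transcript that includes them.
MAP2K7-202: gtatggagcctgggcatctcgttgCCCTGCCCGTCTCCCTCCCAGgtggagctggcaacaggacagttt
MAP2K7-201: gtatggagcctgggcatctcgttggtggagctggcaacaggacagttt
SREBF1-202: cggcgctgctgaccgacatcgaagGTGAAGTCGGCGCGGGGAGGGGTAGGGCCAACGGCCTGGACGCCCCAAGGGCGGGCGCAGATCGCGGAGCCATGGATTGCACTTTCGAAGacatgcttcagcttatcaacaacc
SREBF1-201: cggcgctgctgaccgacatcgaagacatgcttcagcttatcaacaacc

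Among the others, GSN-203 of the actin-severing protein gelsolin held 46.9% in KD and 25.9% in WT at 48 h and 43.2% in KD and 31.2% in WT at 96 h. SLC4A2-201, of an anion exchanger, held 4.59% in KD and 10.8% in WT at 48 h and 10.1% in KD and 18.7% in WT at 96 h. HAPLN3-202 held 38.9% in KD and 23.4% in WT at 48 h and 70.2% in KD and 59.5% in WT at 96 h. EMC3-201, of a subunit of the endoplasmic reticulum membrane complex, held 81.0% in KD and 89.5% in WT at 48 h and 75.6% in KD and 83.7% in WT at 96 h. Differences of this size at 48 h and 96 h did not pass in the edgeR test, with adjusted p between 0.194 and 0.386 for these 4 genes. EIF3C-201 and RASA4B-204 belong to genes with near-identical copies, and the shares, 28.3% in KD and 43.5% in WT for EIF3C-201 at 48 h, are uncertain for that reason.

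**Figure D4:**
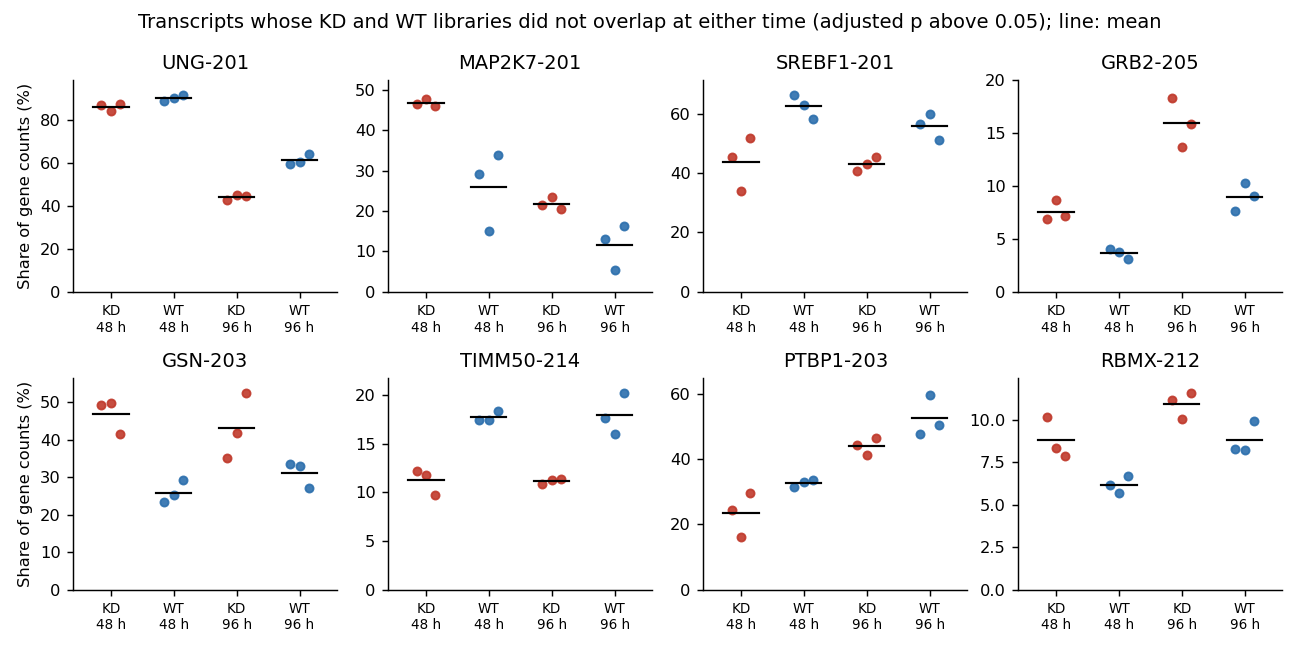
Share of the gene's counts (%) for 8 transcripts whose KD and WT libraries did not overlap at 48 h or at 96 h, 1 point for each library, a line at the group mean, KD in red and WT in blue. None passed the threshold over both times, and at 96 h UNG-201 is at 43.0% to 45.1% in KD and 59.5% to 64.1% in WT.

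Proteins linked to NORAD were examined as lists. Since 0.00357% of all tested passed over both times, 0.0606% at 48 h and 0.0143% at 96 h, a count of 0 in a list of this size lies at the background and says nothing about the list, here and in the lists that follow. In the NORAD complex list 0 of 28 transcripts of 14 genes passed at either time, and the median absolute difference over both times was 2.11 points, against 2.25 points for all tested. RBMX-212, a decay-annotated transcript of RBMX, held 10.2%, 8.34% and 7.85% in KD and 6.14%, 5.68% and 6.69% in WT at 48 h, and 11.2%, 10.1% and 11.6% in KD and 8.27%, 8.20% and 9.91% in WT at 96 h. It did not pass (log2 odds ratio 0.45 ± 0.11, edgeR adjusted p 0.407), and it met the 10% minimum only through KD at 96 h, where it is high. In the 24 h libraries, in which NORAD was not lower, it held 7.52% and 9.20% where labelled KD and 3.87% and 5.41% in WT. It was the only 1 of the 28 without overlap at both times in the same direction (3.57%, against 1.54% of all tested). In opposite directions, 1 of the 28 did not overlap at both times, against 0.767% of all tested. The main RBMX transcript RBMX-201 held 62.4% in KD and 61.9% in WT at 48 h and 60.5% in KD and 59.1% in WT at 96 h. PRPF19-201, of a spliceosome component, was at 99.3% in KD and 99.0% in WT at 48 h. TOP1, the topoisomerase itself, has 1 counted transcript in the table and so no usage. Of 16 topoisomerase transcripts 0 passed, and TOP1MT-201, of the mitochondrial topoisomerase, held 86.5%, 89.5% and 94.1% in KD and 95.8%, 95.7% and 94.5% in WT at 48 h and 92.3%, 92.8% and 93.7% in KD and 95.2%, 95.1% and 95.6% in WT at 96 h. Of 46 transcripts of Pumilio and deadenylase genes 0 passed, with a median absolute difference of 1.97 points.

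The splicing lists gave similar counts. Over both times 0 of 39 transcripts of SR proteins, 0 of 64 of hnRNP proteins and 0 of 95 of splicing kinases and RBM regulators passed. Without overlap at both times were 2 of the SR protein transcripts (5.13%), 1 of the hnRNP transcripts (1.56%) and 1 of the splicing kinase and RBM regulator transcripts (1.053%), against 1.54% of all tested, so the last lists lay at or below the background. Of the SR pair, SRSF5-201 met the 10% minimum through WT alone, where it is high. PTBP1-203, of the polypyrimidine tract binding protein, held 24.3%, 16.1% and 29.7% in KD and 31.3%, 33.0% and 33.5% in WT at 48 h, and 44.1%, 41.2% and 46.3% in KD and 47.5%, 59.5% and 50.3% in WT at 96 h (edgeR adjusted p 0.529). SRSF7-208, annotated for decay, held 16.3% in KD and 12.5% in WT at 48 h and 21.3% in KD and 19.0% in WT at 96 h. Cleavage and polyadenylation had 0 of 54 past the threshold, DNA replication and repair 0 of 81, cohesin and condensin 0 of 43, cell cycle and mitosis 0 of 65, interferon and antigen presentation 0 of 46, and cytoskeleton and adhesion 0 of 57. Isoform switches known in cancer had 0 of 120 over both times and 1 at 48 h, BCL2L1-203. CTNND1-230, of the p120 catenin at cell junctions, held 12.5%, 3.71% and 13.8% in KD and 18.8%, 23.2% and 14.4% in WT at 48 h and 11.5%, 10.3% and 14.2% in KD and 19.7%, 19.9% and 18.4% in WT at 96 h, without passing (edgeR adjusted p 0.545).

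Ribosomal protein and snoRNA host genes had 6 of 59 transcripts without overlap at both times (10.2%, against 1.54% of all tested) and 0 of 59 past the threshold. They are highly counted and belong to 3 genes in pairs that move against each other, and RPL13A-202 and RPSA-207 met the 10% minimum through KD alone, where they are high. RPS24-203 held 18.1% in KD and 22.7% in WT at 48 h and 15.8% in KD and 20.1% in WT at 96 h, while RPS24-201 held 24.8% in KD and 21.3% in WT at 48 h and 22.6% in KD and 14.9% in WT at 96 h. RPL13A-201 held 74.5% in KD and 84.7% in WT at 48 h and 89.4% in KD and 91.9% in WT at 96 h. RPSA-201 held 81.3% in KD and 95.3% in WT at 48 h and 98.1% in KD and 98.3% in WT at 96 h.

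The classes of transcripts were compared by their share of all counts of the tested genes. Transcripts annotated as retained introns held 7.21%, 6.86% and 5.23% of counts in KD and 4.98%, 5.17% and 5.20% in WT at 48 h, and 5.78%, 5.93% and 6.37% in KD and 5.77%, 5.72% and 5.99% in WT at 96 h. KD replicates 1 and 2 of 48 h were high, and the other libraries of 48 h and 96 h lay between 4.98% and 6.37%. In the 24 h libraries, in which NORAD was not lower, retained introns held 6.26% and 6.77% where labelled KD and 5.75% and 5.47% in WT. The mean difference over 48 h and 96 h was 0.758 points (exact permutation test within times, two-sided, p = 0.05, adjusted p = 0.065 over 4 classes, smallest possible p 0.005). It was 0.563 to 1.06 points without 1 library at a time. Protein coding transcripts held 86.4% ± 1.88 in KD and 88.6% ± 0.179 in WT at 48 h and 87.5% ± 0.360 in KD and 87.8% ± 0.288 in WT at 96 h (SD, n = 3 each), a difference of -1.27 points (exact permutation p = 0.065, adjusted p = 0.065). Transcripts annotated for nonsense-mediated decay differed by 0.139 points and processed transcripts by 0.220 points, both with an adjusted p of 0.065 in the exact permutation test. No class passed the threshold.

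**Figure D5:**
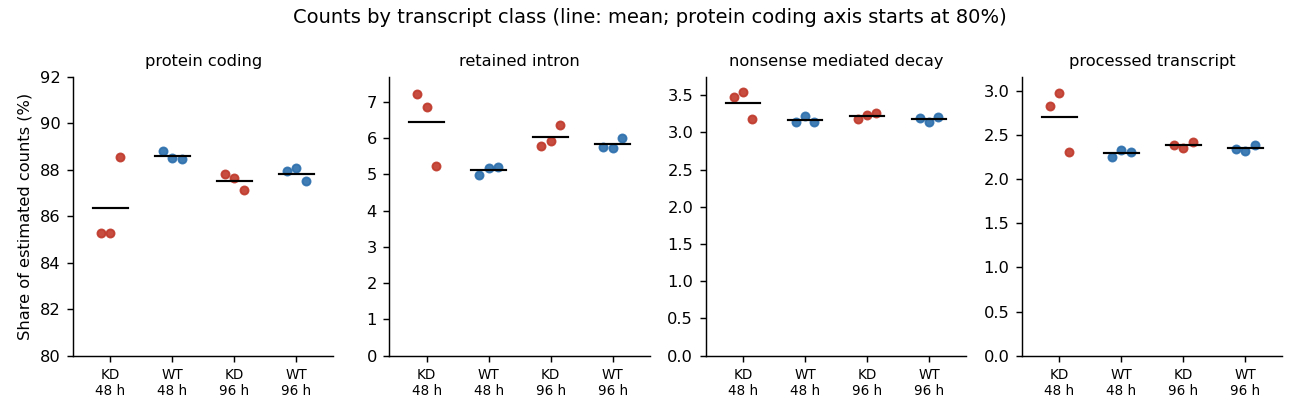
Share of the estimated counts of tested genes (%) by annotated transcript class, 1 point for each library, a line at the group mean, KD in red and WT in blue. The protein coding axis starts at 80%, and KD 48 h replicates 1 and 2 stand apart in all 4 classes, with retained introns at 7.21% and 6.86%.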

How the data were processed

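The values are estimated counts for each transcript, which the authors deposited as whole numbers. Per the submitters' processing notes, the tools were kallisto and DESeq2 and the build was hg19. The sources used here give no versions, index or filters. Reads shared by transcripts are allocated by kallisto's model, so shares of similar transcripts carry that uncertainty. Of 166096 transcripts, 156584 were matched by identifier to GENCODE 29, whose GRCh38 coordinates and transcript sequences are used, and 9512 were left out (2.75% to 3.06% of a library's counts).

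For each transcript, its count and that of the rest of its gene were fitted as 2 columns of a library with edgeR 4.0.16 in R 4.3.3 (glmQLFit and glmQLFTest, a term per library, time as a block), and p-values were adjusted by Benjamini-Hochberg over all 28032 transcripts at 0.05. At 48 h, 96 h and for their difference, a mean per group was fitted, with 1 estimate of the spread shared by the 4 groups. On counts simulated from these libraries, the fit over both times found 19% of 2-fold and 68.5% of 4-fold odds changes, with 4.89% of calls false, the fit at 48 h 4.5% and 36.5%, and that at 96 h 3.5% and 31.5%. The simulation gave each transcript the same spread in every library. The real libraries of 48 h varied more than those of 96 h, so these figures may not hold for the data, least of all at single times. Alternatives were DESeq2 1.42.0, limma 3.58.1 on the log2 ratio with 0.5 counts added, diffSpliceDGE, other minimums, all 16 libraries, a replicate block, counts per length, and each library left out. Sums by start, 3′ end (within 50 bases) or coding sequence, library weights and each time alone were added after the data had been seen. Transcripts passing 10% through KD groups only numbered 2227, through WT groups only 1264, and 1315 lay between 9% and 10% against 1199 between 10% and 11%.

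Members, gene lists (15 lists, 372 symbols) and tests were chosen with earlier results of these data known. The rule for named genes asked for calls over both times, of which there was 1, so it was applied without that threshold. It took the 24 genes with the largest differences among transcripts without overlap at both times in genes of at least 200 counts, the 12 of lowest p among such transcripts with at least 2 points, and list members without overlap at both times. The only transcript that passed over both times and a few others are not reported here. Calls at 1 time are also named, and all other genes were chosen after their values were seen. At this depth the spread between libraries, not counting, limits precision.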

Additional observations from a re-analysis of the deposited data

Results flagged for a closer look

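The libraries of 24 h entered no comparison of the report and only 1 alternative fit, of all 16 libraries, and NORAD was not lower in the 2 labelled KD at that time. In 14 of the 20 transcripts called at 48 h, 96 h or both, they did not overlap with the 2 WT libraries of 24 h in the direction of the call, in 2 they did not overlap in the opposite direction, and in 4 they overlapped. Among all transcripts tested, 39.5% did not overlap at 24 h in either direction. Those with a difference of at least 5 points, KD minus WT at 24 h, included RIC8A-201 (-13.0), NOP56-216 (-16.7) and SNAPC2-206 (7.72). The same held for BCL2L1-203 (6.06 points), HSBP1-201 (-5.84) and ZNF764-201 (-6.95). The 2 in the opposite direction were NKAPD1-209, at 19.96 points at 24 h and -11.1 points at 48 h, and RAB3GAP1-203, at 10.49 points at 24 h and -5.53 points at 48 h. SNED1-201 differed by 41.7 points, with 44.3% and 39.8% in the libraries labelled KD and 0% and 0.806% in WT. DUOX2-201 differed by 44.2 points, with 83.7% and 63.2% in the libraries labelled KD and 58.6% and 0% in WT, so 1 WT library sets most of that value. With 2 libraries on each side no test was made.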

How the results depend on the processing

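Over both times 1 transcript was called, and 271 by DESeq2, 2 by limma on the log2 ratio, 5 with 2 counts added, 17 by diffSpliceDGE with either scaling, 2 with a 5% minimum, 4 with all 16 libraries and 2 with counts per length. Among settings added after seeing the data it was 3 with library weights, 7 summed by start and 0 by 3′ end. Leaving out a library gave 0 to 1, with 0 without KD 48 h replicate 1 or 2, WT 48 h replicate 2 or 3, KD 96 h replicate 1 or 3, or WT 96 h replicate 2 or 3. At 48 h the 17 became 37 by limma, 600 with library weights and 0 with the libraries of 48 h alone. Leaving out a library gave 9 to 1774, with 10 without WT 48 h replicate 2, 9 without WT 48 h replicate 3 and 1774 without KD 48 h replicate 3. At 96 h the 4 became 18 with library weights and 0 with the libraries of 96 h alone, and 0 to 6 without a library (0 without KD 96 h replicate 2 or 3 or WT 96 h replicate 3, 1 without WT 96 h replicate 2). The difference between times gave 12 by limma and 0 to 133 without a library, with 2 without KD 48 h replicate 1, 1 without KD 48 h replicate 2 or WT 96 h replicate 2, and 133 without KD 48 h replicate 3. The class annotated for decay differed by 0.0575 points with counts per length, and the 4 classes by 0.102 to 0.195 (decay), 0.152 to 0.320 (processed), -1.81 to -0.993 (protein coding) and 0.563 to 1.06 points (retained intron) without a library. The cause of these changes was not tested. No value for a named transcript that passed the threshold in the main fit or in the other setting changed sign. Sign changes of values that passed in neither were not counted.

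The replicate numbers share no stated batch. Deviations of same-numbered KD and WT libraries correlated at -0.0139, -0.223 and -0.332 at 48 h, so they were not taken as pairs. With a replicate block 0 transcripts passed over both times, 0 at 48 h and 0 at 96 h. The other settings were not run on sums by start, 3′ end or coding sequence.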
